A study of Mus musculus with 48 samples.

Results

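The 10 genes described here encode the mouse vascular endothelial growth factor (VEGF) ligands Vegfa, Vegfb, Pgf, Vegfc and Vegfd, the receptors Flt1, Kdr and Flt4, and the co-receptors Nrp1 and Nrp2. They were chosen by name as the family that the infused protein belongs to, and all 10 were found among the 54752 genes of the expression matrix. RNA-seq libraries, 48 in number, came from 13 male mice labelled C57BL/6 that carried an eGFP cassette in the Prox1 locus (Prox1-eGFP), so that lymphatic cells fluoresced green. All mice carried an infusion pump for several weeks. The control group (ctrl) was infused with bovine serum albumin, the angII group with human angiotensin II and albumin, and the angII+VEGFC group with angiotensin II together with recombinant human VEGFCc156s, a mutant VEGF-C protein that activates VEGFR3 and not VEGFR2. The agent was given as protein and not from a transgene. Mice were 8 to 16 months old by their labels, while the study's methods count age in weeks. Each population held 4 ctrl, 5 angII and 3 angII+VEGFC libraries, each from a different mouse, and most mice gave a library to every population. Lymphatic endothelial cells (LECs) of heart and diaphragm were sorted as viable cells that carried CD31 and eGFP and lacked CD45.2, and heart blood endothelial cells (BECs) as the eGFP-negative cells of the same gate. Cardiomyocytes came from the pellet of a slow spin of digested heart and were not sorted.

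VEGF-A, VEGF-B and PlGF (the product of Pgf) bind VEGFR1 (Flt1), a high-affinity receptor with weak kinase activity that limits the ligand available to VEGFR2. VEGFR2 (Kdr) carries the main angiogenic signal of VEGF-A in blood endothelium. VEGF-C and VEGF-D are secreted as precursors, are cut by extracellular proteases and act on VEGFR3 (Flt4), which drives the growth and survival of lymphatic vessels. Neuropilin-1 supports VEGF-A signalling in blood vessels, and neuropilin-2 supports VEGF-C signalling in lymphatic vessels. In the mouse genome (GRCm38) the ligand genes lie at chr17:46016993-46032369, minus strand (Vegfa), chr19:6982473-6987651, minus strand (Vegfb), chr12:85166635-85177790, minus strand (Pgf), chr8:54077606-54187096, plus strand (Vegfc) and chrX:164373378-164402650, plus strand (Vegfd). The receptor genes lie at chr5:147561604-147726011, minus strand (Flt1), chr5:75932827-75978458, minus strand (Kdr) and chr11:49609263-49652739, plus strand (Flt4), and the co-receptor genes at chr8:128358604-128503363, plus strand (Nrp1) and chr1:62703285-62818695, plus strand (Nrp2).

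Expression is given in TPM, a transcript abundance scaled for transcript length and for the total of the library, so that levels of different genes can be compared. TPM keeps no read depth. Genes at or above 1 TPM ranged in number from 12924 to 25896 per library. The labelled cell types were checked against their markers. Prox1 was at 97.6 to 229.8 TPM in heart LECs, 175 to 315 TPM in diaphragm LECs, 1.06 to 5.72 TPM in heart BECs and 0.867 to 6.18 TPM in cardiomyocytes. Myh6, a cardiac myosin, was at 1004 to 3914 TPM in the cardiomyocyte libraries and at no more than 78.5 TPM in any other library. The cardiomyocyte libraries also held endothelial transcripts, with a sum of 321 to 548 TPM over Pecam1, Cdh5, Tie1, Tek and Emcn. In the same libraries fibroblast markers summed to 2176 to 4778 TPM, leukocyte markers to 515 to 1720 TPM and erythroid markers to 8927 to 24840 TPM. The cardiomyocyte markers summed to 7696 to 20275 TPM. In these bulk libraries, fewer cells of a type and less RNA per cell cannot be told apart.

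The 3 tyrosine kinase receptors separated the endothelial populations. Flt4 was highest in diaphragm LECs, where it ranged from 610.3 to 1247 TPM with a median of 879 TPM. It ranged from 273 to 642 TPM around a median of 449.6 TPM in heart LECs and from 25.4 to 64.4 TPM around a median of 52.0 TPM in heart BECs. Every LEC library lay above every heart BEC library, and the LEC populations of heart and diaphragm overlapped each other. In limma, the difference in mean log2(TPM + 1) between heart LECs and heart BECs was 3.17 ± 0.13 (SE, adjusted p = 2.81e-23), and Flt4 was lower in heart LECs than in diaphragm LECs, with a log2 difference of -0.98 ± 0.13 (adjusted p = 4.32e-07). Kdr had the opposite placement, with heart BECs highest. It ranged from 526 to 1145 TPM with a median of 910.0 TPM in heart BECs, from 305 to 584 TPM with a median of 436 TPM in diaphragm LECs and from 243 to 523 TPM with a median of 339 TPM in heart LECs. Heart LECs and heart BECs did not overlap, with a log2 difference of -1.33 ± 0.12 (limma adjusted p = 2.35e-12). The Kdr difference between heart and diaphragm LECs was small, at -0.38 ± 0.12 on the log2 scale (limma adjusted p = 0.0362), and lost its call when the libraries of any of 8 of the 13 mice were left out.

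Flt1 was the member whose level differed most between the lymphatic populations. It ranged from 353 to 637 TPM with a median of 465 TPM in heart BECs, from 71.5 to 191 TPM with a median of 114 TPM in heart LECs, and from 3.48 to 35.8 TPM with a median of 8.42 TPM in diaphragm LECs. These 3 ranges did not overlap. The log2 difference was 3.50 ± 0.23 between heart and diaphragm LECs (limma adjusted p = 5.62e-15) and -2.09 ± 0.23 between heart LECs and heart BECs (adjusted p = 9.18e-10). In ctrl libraries alone Flt1 was at 95.1 to 138 TPM in heart LECs and 3.65 to 32.2 TPM in diaphragm LECs. Of 5 blood capillary markers, Fabp4, Rgcc, Cd300lg and Aqp1 had higher medians in heart than in diaphragm LECs (1408 and 249.95, 135 and 38.1, 226 and 138, 372 and 290.3 TPM), and Gpihbp1 had a lower one (814 and 1319.8 TPM). As a percentage of the heart BEC mean, heart and diaphragm LECs held Flt1 at 24.3% and 2.73%, Fabp4 at 17.5% and 2.85% and Rgcc at 12.8% and 2.29%. They held Aqp1 at 25.2% and 18.4%, Cd300lg at 35.9% and 21.7% and Gpihbp1 at 40.5% and 59.2%, so the 5 markers did not share 1 pattern. The part of capillary transcripts in the Flt1 difference was not tested. As a share of the summed TPM of the 3 receptors, Flt1 was at a median of 33.5% in heart BECs and 12.7% in heart LECs, but at 0.724% in diaphragm LECs. Flt4 made up a median of 66.0% of the same sum in diaphragm LECs, 50.2% in heart LECs and 3.51% in heart BECs. The ratio of Flt4 to Kdr in TPM was 1.70 to 2.16 in diaphragm LECs, 0.721 to 1.82 in heart LECs and 0.0483 to 0.0656 in heart BECs, so that both LEC populations held the receptors in another proportion than BECs.

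Of the co-receptors, only Nrp1 separated both LEC populations from heart BECs without overlap. Nrp1 ranged from 524 to 841 TPM with a median of 736 TPM in heart BECs, from 32.0 to 359 TPM with a median of 70.1 TPM in heart LECs and from 5.41 to 41.9 TPM with a median of 13.6 TPM in diaphragm LECs. Heart BECs lay above every LEC library, and the LEC populations overlapped. The Nrp1 log2 difference was -3.15 ± 0.21 between heart LECs and heart BECs (limma adjusted p = 7.70e-16) and 2.5 ± 0.21 between heart and diaphragm LECs (adjusted p = 8.19e-12). Nrp1 was at 15.3% of the heart BEC mean in heart LECs and 2.45% in diaphragm LECs. These values were close to those of Fabp4 and Rgcc above and below those of Aqp1, Cd300lg and Gpihbp1. The part of capillary transcripts was not tested. Nrp2 ranged from 117 to 272 TPM with a median of 187 TPM in diaphragm LECs, from 76.5 to 156 TPM with a median of 124 TPM in heart BECs, and from 81.4 to 186 TPM with a median of 113 TPM in heart LECs. No difference was detected between heart LECs and heart BECs (-0.07 on the log2 scale, 95% confidence interval -0.33 to 0.19, limma adjusted p = 0.723). Nrp2 was higher in diaphragm LECs than in heart LECs (heart minus diaphragm -0.68 ± 0.13 in log2, limma adjusted p = 0.000301). Nrp2 shares its locus with the annotated antisense gene Gm29083, and the libraries do not mark strand, so the 2 genes cannot be told apart by strand.

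**Figure D1:**
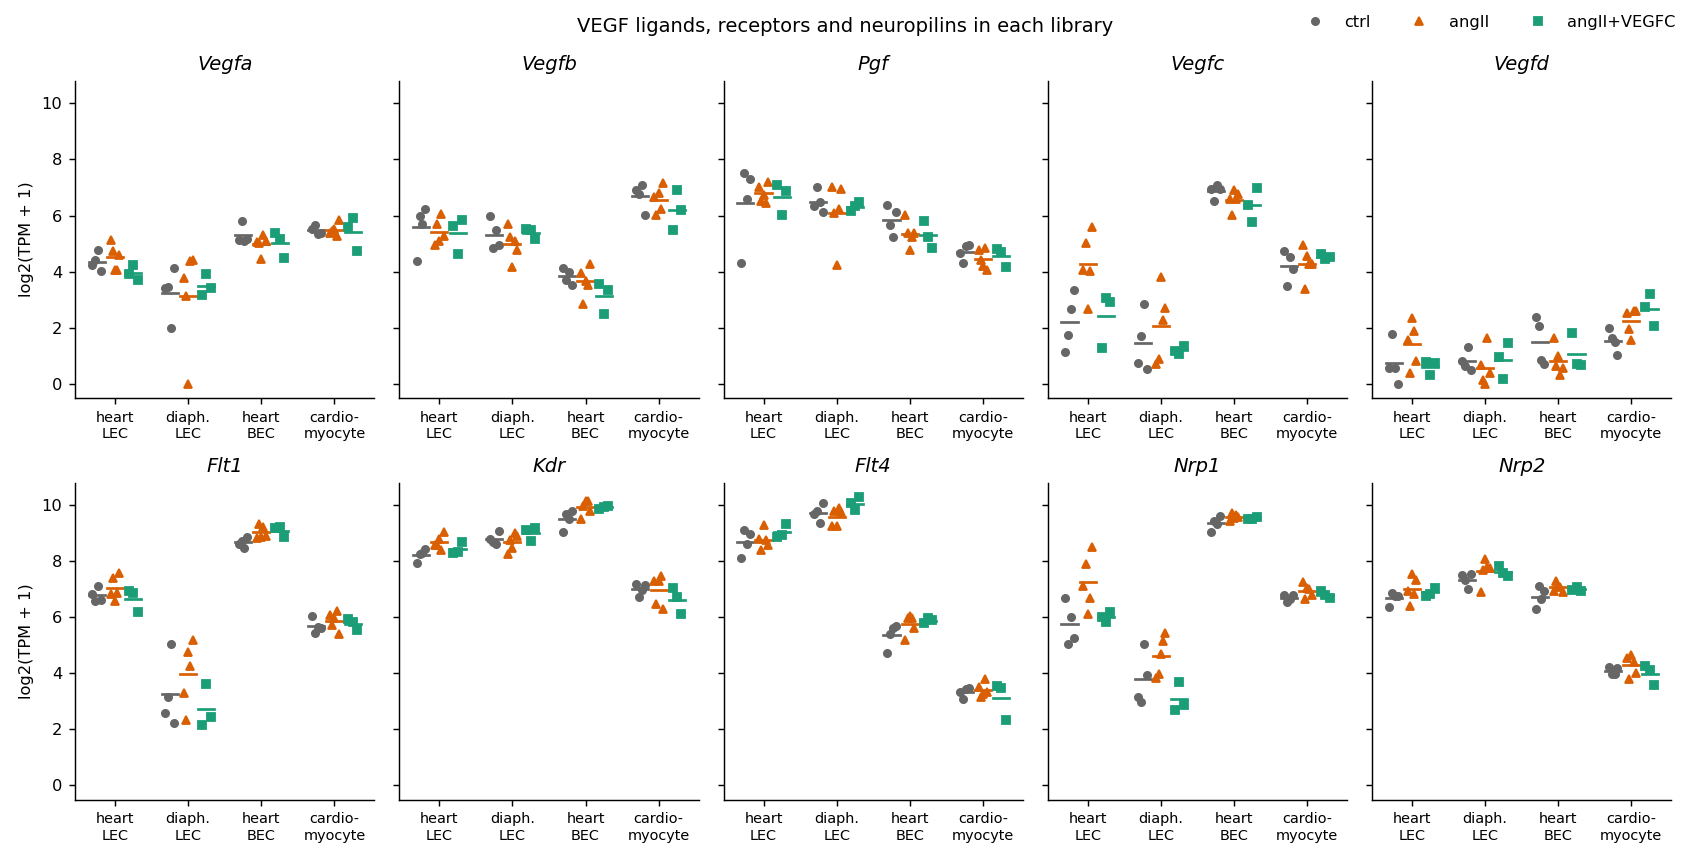
Expression of the 10 genes as log2(TPM + 1) on the vertical axis, with the 4 populations on the horizontal axis. Each point is 1 library, with 4 ctrl (grey circles), 5 angII (orange triangles) and 3 angII+VEGFC libraries (green squares) per population, and lines mark group means. Flt4 is higher in both LEC populations than in the others, Flt1, Kdr, Nrp1 and Vegfc are highest in heart BECs, and Vegfb is highest in cardiomyocytes.

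The ligands followed a different order. Vegfc, the main ligand of VEGFR3, was lowest in the cells with the most Flt4. It ranged from 52.9 to 135 TPM with a median of 102 TPM in heart BECs, from 1.17 to 47.7 TPM with a median of 6.94 TPM in heart LECs and from 0.428 to 12.8 TPM with a median of 1.39 TPM in diaphragm LECs. No LEC library reached the lowest heart BEC library. The log2 difference was -3.63 ± 0.32 between heart LECs and heart BECs (limma adjusted p = 2.21e-12), with Vegfc higher in the BECs of 12 of 12 mice, and -5.03 ± 0.32 between diaphragm LECs and heart BECs (adjusted p = 5.52e-17). Between heart and diaphragm LECs it was 1.39 ± 0.32 (limma adjusted p = 0.00335), but 0.77 with an adjusted p of 0.387 in ctrl libraries alone. Vegfd, the other ligand of VEGFR3, was low in each endothelial population, with medians of 0.694 TPM in heart LECs, 0.569 TPM in diaphragm LECs and 0.719 TPM in heart BECs, and it was listed at 0 in 2 LEC libraries. None of its 3 differences among endothelial populations passed the test (limma adjusted p = 0.370 to 0.712).

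Pgf was the ligand with the highest median in both LEC populations. It ranged from 18.5 to 184 TPM with a median of 111 TPM in heart LECs, from 17.8 to 128 TPM with a median of 79.4 TPM in diaphragm LECs, and from 26.5 to 82.1 TPM with a median of 40.7 TPM in heart BECs. All 3 ranges overlapped, and the heart LEC library of ctrl mouse 1 and the diaphragm LEC library of angII mouse 4 were the lowest of their populations. Pgf was higher in heart LECs than in heart BECs (log2 difference 1.13 ± 0.26, limma adjusted p = 0.000943), but in ctrl libraries alone the difference was 0.58 with an adjusted p of 0.516. Vegfb, whose product binds VEGFR1, ranged from 19.9 to 74.1 TPM with a median of 49.4 TPM in heart LECs and from 4.56 to 18.1 TPM with a median of 11.2 TPM in heart BECs. These ranges did not overlap (log2 difference 1.91 ± 0.21, limma adjusted p = 1.35e-09). Vegfa, the main ligand of VEGFR2, ran the other way, from 21.0 to 55.1 TPM with a median of 33.7 TPM in heart BECs, from 12.1 to 33.9 TPM with a median of 17.7 TPM in heart LECs, and from 0 to 20.5 TPM with a median of 9.74 TPM in diaphragm LECs. Diaphragm LECs lay below every heart BEC library, and 1 diaphragm LEC library of the angII group was listed at 0. The Vegfa difference between heart LECs and heart BECs (-0.83 ± 0.29 in log2, limma adjusted p = 0.0329) lost its call when the libraries of any of 7 mice were left out and when genes with low values were kept. Between heart and diaphragm LECs the Vegfa difference was 0.98 ± 0.29 (limma adjusted p = 0.0305), and it lost its call without any of 7 mice. Vegfb in diaphragm LECs ranged from 16.7 to 62.2 TPM with a median of 35.8 TPM, and its difference from heart LECs was not detectable (0.22 in log2, 95% confidence interval -0.22 to 0.65, limma adjusted p = 0.577).

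**Figure D2:**
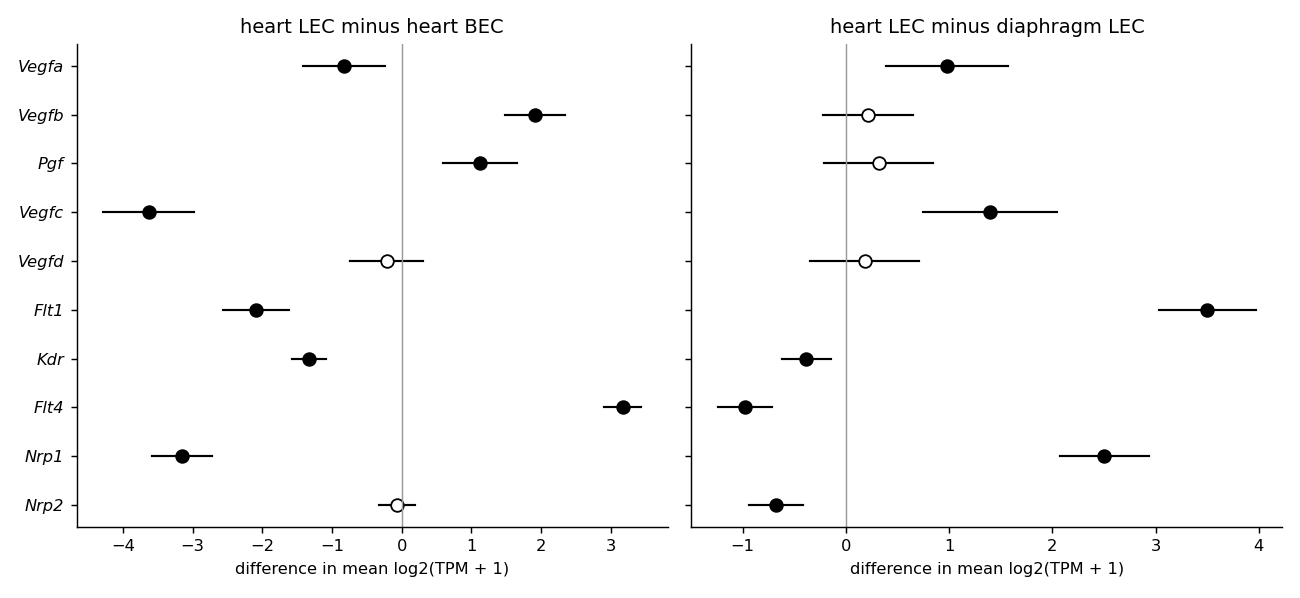
Differences in mean log2(TPM + 1) for the 10 genes between populations of 12 libraries each, with limma estimates as points and 95% confidence intervals as lines. Filled points have an adjusted p under 0.05. Flt4 lies at 3.17 for heart LECs minus heart BECs and at -0.98 for heart minus diaphragm LECs, and Flt1 lies at -2.09 and 3.50.

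In the comparison of heart LECs with heart BECs, 8 of the 10 genes passed the test, whereas 24.4% of 29322 genes tested did so. For heart against diaphragm LECs the numbers were 7 of 10 genes and 7.64% of all genes, and for diaphragm LECs against heart BECs they were 9 of 10 and 20.6%. Against cardiomyocytes, 9 of the 10 genes passed for heart LECs, 10 of 10 for diaphragm LECs and 9 of 10 for heart BECs, beside 66.6%, 54.1% and 50.7% of all genes. The median log2 difference of all genes was 0.16 for heart LECs minus heart BECs and 0.12 for heart minus diaphragm LECs. It was 0.69 for heart LECs, 0.55 for diaphragm LECs and 0.53 for heart BECs relative to cardiomyocytes, so these last differences contain a shift shared by most genes. Cardiomyocyte libraries were all sequenced in a batch of their own, so the batch and the cell type cannot be told apart there.

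In cardiomyocyte libraries the receptors and the ligands stood apart. Mean TPM of Flt1, Kdr, Flt4, Nrp1, Nrp2 and Vegfc was 11.2%, 13.7%, 18.1%, 15.6%, 13.8% and 19.8% of the mean in heart BECs. The 5 endothelial markers were at 12.5% to 17.8% and the 5 blood capillary markers at 13.9% to 16.4% of their heart BEC means. The receptors, the neuropilins and Vegfc thus lay near the ratio of genes that mark endothelial cells, and the part of such cells in these values was not tested. Vegfa, Vegfb and Vegfd lay far from that ratio, at 129%, 824% and 266% of their heart BEC means, and Pgf was at 49.2%. The part of fibroblast, leukocyte and erythroid transcripts in these values was not tested. In TPM, the cardiomyocyte libraries held Flt1 at 41.1 to 72.9 (median 53.7), Kdr at 67.8 to 175 (median 129) and Flt4 at 4.02 to 12.8 (median 9.51). Nrp1 was at 92.3 to 151 TPM (median 109.8) and Nrp2 at 10.9 to 24.3 TPM (median 16.8). For Flt1 and Nrp1 these levels lay above those of diaphragm LECs (diaphragm LECs minus cardiomyocytes -2.23 ± 0.25 and -2.84 ± 0.23 in log2, limma adjusted p = 6.57e-10 and 9.15e-14), so cardiomyocyte libraries were not the lowest population for every receptor. Among the ligands, Vegfc was at 9.41 to 30.1 TPM (median 21.3), Pgf at 15.8 to 30.1 TPM (median 24.6) and Vegfd at 1.05 to 8.24 TPM (median 3.05). Vegfd was higher in cardiomyocytes than in heart BECs (heart BECs minus cardiomyocytes -1.07 ± 0.28 in log2, limma adjusted p = 0.00168), but the difference was 0.05 in ctrl libraries alone.

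Vegfb ranged from 43.6 to 141 TPM in cardiomyocyte libraries with a median of 103 TPM, above all heart BEC libraries, and made up a median of 51.6% of the summed ligands. Its log2 difference of heart BECs minus cardiomyocytes was -3.03 ± 0.23 (limma adjusted p = 1.48e-14). Vegfa ranged from 25.6 to 59.7 TPM with a median of 43.9 TPM in cardiomyocyte libraries. It was lower in heart LECs (heart LECs minus cardiomyocytes -1.29 ± 0.32 in log2, limma adjusted p = 0.000661). Against heart BECs the Vegfa difference was -0.46 ± 0.32 (adjusted p = 0.224), and it was -1.27 with an adjusted p of 0.00104 after quantile normalization. Vegfa was higher in the cardiomyocytes of 10 of 12 mice, with a two-sided exact sign-flip permutation p of 0.001953.

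**Figure D3:**
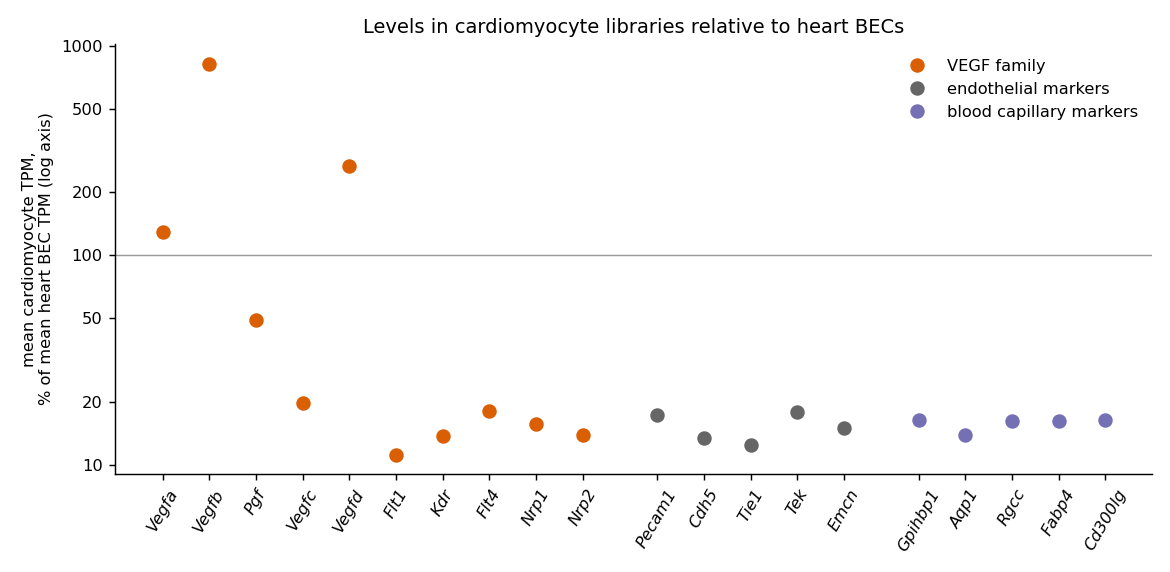
Mean TPM in the 12 cardiomyocyte libraries as a percentage of the mean in the 12 heart BEC libraries, on a log axis, for the 10 VEGF family genes, 5 endothelial markers and 5 blood capillary markers. The 3 receptors, both neuropilins and Vegfc lie between 11.2% and 19.8%, near the markers, and Vegfb lies at 824%.

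The promoters of Flt1, Kdr and Vegfc, which were highest in heart BECs, are shown because blood endothelial genes are known to carry sites for ETS transcription factors. The core of such a site is GGAA or, on the other strand, TTCC. The 250 bases before the RefSeq start (GRCm38.p6, gene strand, 5′ to 3′) lie at chr5:147726012-147726261 for Flt1 (minus strand), chr5:75978456-75978705 for Kdr (minus strand, with 3 bases inside the annotated gene) and chr8:54077282-54077531 for Vegfc (plus strand). Capitals mark each GGAA or TTCC.
Flt1: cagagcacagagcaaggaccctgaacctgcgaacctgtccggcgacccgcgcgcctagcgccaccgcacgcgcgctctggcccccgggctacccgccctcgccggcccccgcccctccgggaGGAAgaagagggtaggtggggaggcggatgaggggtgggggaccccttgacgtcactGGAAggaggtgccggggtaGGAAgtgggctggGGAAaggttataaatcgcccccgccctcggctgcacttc
Kdr: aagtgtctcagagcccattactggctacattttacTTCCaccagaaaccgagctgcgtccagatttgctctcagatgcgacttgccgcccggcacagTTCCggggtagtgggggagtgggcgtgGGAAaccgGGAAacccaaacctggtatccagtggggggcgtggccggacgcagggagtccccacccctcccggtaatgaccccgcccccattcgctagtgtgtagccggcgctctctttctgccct
Vegfc: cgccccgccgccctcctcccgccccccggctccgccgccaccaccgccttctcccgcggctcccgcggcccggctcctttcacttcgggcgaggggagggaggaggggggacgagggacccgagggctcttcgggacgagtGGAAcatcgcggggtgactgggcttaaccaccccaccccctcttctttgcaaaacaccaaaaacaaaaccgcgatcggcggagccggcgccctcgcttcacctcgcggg
The Flt1 window held 4 matches, the Kdr window 4 and the Vegfc window 1. At least 1 match was present in 93.4% of 32851 promoter windows of this length, with a median of 3.

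The genes whose levels ran most closely with a member were found by Pearson correlation of log2(TPM + 1) over the 48 libraries. These values describe differences between the 4 populations, and the libraries of a population share their preparation. Flt4 was most like Arl4a, Add3 and Hsd3b7 (r = 0.985 to 0.987). Nrp1 was most like Fabp4, Tcim and Cd36 (r = 0.980 to 0.985), of which Fabp4 and Cd36 take up and carry fatty acids in capillaries. Kdr was most like Ets1, Cav1 and Myct1 (r = 0.967 to 0.968), where Ets1 is an ETS transcription factor and Cav1 the coat protein of caveolae. Flt1 was most like Car8, Cd93 and Kcna5 (r = 0.957 to 0.970), Nrp2 like Lama4, Abcg2 and Arhgap27 (r = 0.977 to 0.980), and Vegfc like Kitl, Slc28a2 and Ptp4a3 (r = 0.950 to 0.957). The other ligands had looser partners, which were Popdc2, Apobec2 and Etfb (r = 0.869 to 0.890) for Vegfb, Aaed1, Pla2g6 and Pdcd4 (r = 0.849 to 0.874) for Pgf, Emp3, Pdlim5 and Cxcl16 (r = 0.80 to 0.820) for Vegfa, and Bgn, Vgll3 and Itga11 (r = 0.792 to 0.807) for Vegfd.

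The effect of the infusions on these genes was then examined within each population. None of the 10 genes passed an adjusted p of 0.05 in limma in any of the 12 contrasts of treatment. In heart LECs, 3, 2 and 0 of the 10 genes had an unadjusted p under 0.05 for angII against ctrl, angII+VEGFC against angII and angII+VEGFC against ctrl, beside 10.9%, 10.8% and 4.94% of the 26803 genes tested. The adjusted test was passed by 0.0261%, 0% and 0% of those genes. In diaphragm LECs the unadjusted count was 1, 2 and 0 members beside 15.3%, 8.78% and 1.32% of 23839 genes, and 0%, 0% and 0% of those genes passed the adjusted test. In heart BECs it was 4, 0 and 3 members beside 5.4%, 2.59% and 5.51% of 21281 genes, and 0%, 0% and 0% of those genes passed the adjusted test. In cardiomyocytes it was 1, 0 and 1 members beside 9.85%, 2.41% and 12.9% of 15691 genes, and 0.0892%, 0% and 0.663% of those genes passed the adjusted test. The contrasts of a population share the angII or the ctrl libraries and are not independent. Groups this small can also separate without overlap by chance. The share of all genes whose groups did not overlap was not counted, so no weight is given to such separations below.

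In heart LECs, the members with the largest differences were Vegfc and Nrp1. Vegfc was at 1.17, 2.35, 5.34 and 9.10 TPM in ctrl libraries, at 5.39, 15.3, 15.7, 31.3 and 47.7 TPM in angII libraries and at 1.43, 6.53 and 7.35 TPM in angII+VEGFC libraries. All but 1 of the angII libraries lay above both other groups. In log2 the difference was 2.08 ± 0.64 for angII against ctrl (limma adjusted p = 0.282) and -1.90 ± 0.76 for angII+VEGFC against angII (adjusted p = 0.429). Without the angII+VEGFC library of mouse 2 the latter was -0.86. For angII+VEGFC against ctrl it was 0.18 (limma adjusted p = 0.981). Nrp1 was at 32.0, 37.3, 62.7 and 102 TPM in ctrl libraries, at 67.7, 102, 138, 236 and 359 TPM in angII libraries and at 56.5, 63.8 and 72.5 TPM in angII+VEGFC libraries. The angII group again held the highest values and overlapped both other groups. The log2 difference was 1.51 ± 0.42 for angII against ctrl (limma adjusted p = 0.236) and -1.21 ± 0.50 for angII+VEGFC against angII (adjusted p = 0.434). The median gene of the table differed by 0.23 and -0.37 in the same contrasts. Kdr was at 243 to 345 TPM in ctrl, 333 to 523 TPM in angII and 313 to 412 TPM in angII+VEGFC libraries, with a log2 difference of 0.43 ± 0.18 for angII against ctrl (limma adjusted p = 0.401).

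The summed blood capillary markers were also highest in the angII group. The sum of the blood capillary markers Gpihbp1, Aqp1, Rgcc, Fabp4 and Cd300lg was 1684 to 3172 TPM in ctrl, 3234 to 7999 TPM in angII and 2175 to 2411 TPM in angII+VEGFC heart LEC libraries, so the angII group did not overlap the others. All 5 markers were detected in every heart LEC library. Gpihbp1, Aqp1, Rgcc and Fabp4 had higher medians in angII than in ctrl, whereas Cd300lg was at 248.8 and 248.9 TPM. Only Fabp4, at 448 to 1593 TPM in ctrl and 1662 to 4914 TPM in angII, did not overlap between these groups. The angII libraries of mice 14 and 15, which had the highest Vegfc and Nrp1, also had the highest sums, at 7999 and 7103 TPM. Erythroid transcripts summed to 6.98 to 2179 TPM in ctrl, 2061 to 6525 TPM in angII and 12.2 to 572 TPM in angII+VEGFC libraries, and their part was not tested. Detected genes numbered 16131 to 24086 in ctrl, 19957 to 25896 in angII and 16756 to 18884 in angII+VEGFC libraries, so the angII and angII+VEGFC groups did not overlap. With this number as a covariate, Vegfc differed by -3.92 for angII+VEGFC against angII and by 3.48 for angII against ctrl (limma adjusted p = 0.831 and 0.253). For angII+VEGFC against angII, where the number did not overlap, the covariate largely stands in for the treatment. With the libraries of mice 14 and 15 left out, the log2 difference of angII against ctrl was 1.42 for Vegfc (limma adjusted p = 0.610) and 0.86 for Nrp1 (adjusted p = 0.557). With the log2 marker sum as a covariate it was 0.49 for Vegfc (limma adjusted p = 0.934) and -0.26 for Nrp1 (adjusted p = 0.900). Both alternatives were chosen after the data had been seen. The libraries left out had the highest Vegfc and Nrp1, so a smaller difference followed from that choice. The marker sum did not overlap between angII and ctrl, so the covariate largely stands in for the treatment. Neither fit can therefore give the part of capillary transcripts. Within sequencing batches 1 and 2, the angII against ctrl difference was 2.22 and 1.98 for Vegfc and 0.90 and 2.14 for Nrp1, with no test.

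**Figure D4:**
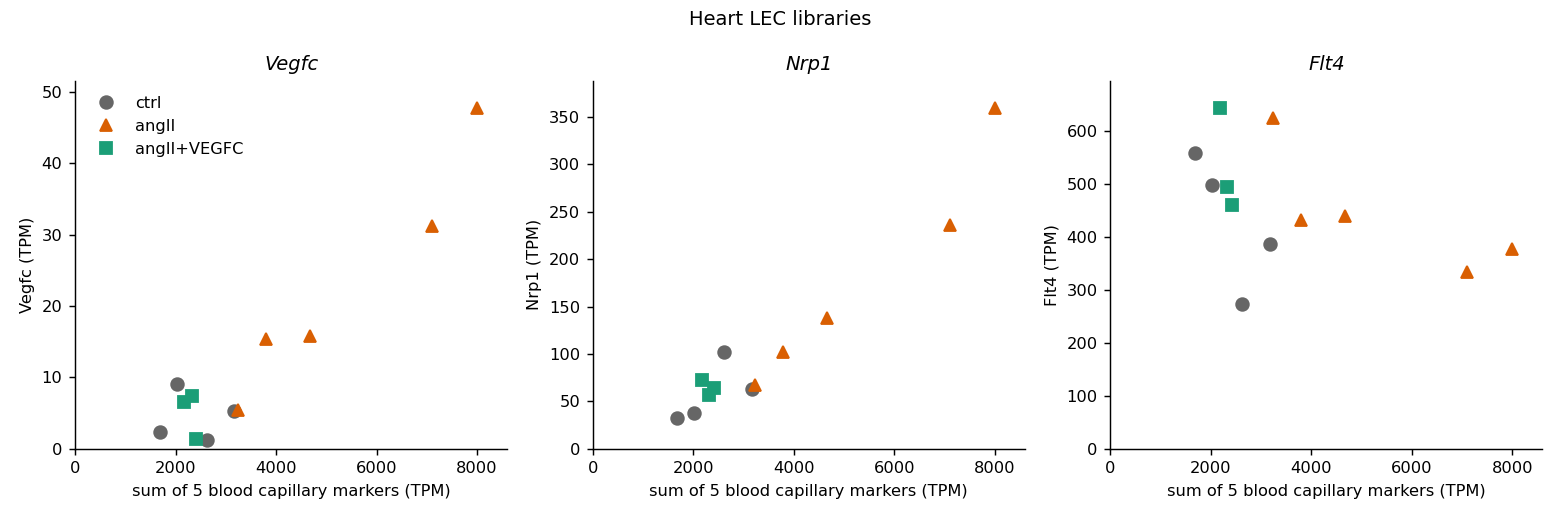
Vegfc, Nrp1 and Flt4 in TPM on the vertical axes of the 3 panels against the sum of 5 blood capillary markers in TPM on the horizontal axes, for the 12 heart LEC libraries (4 ctrl, 5 angII and 3 angII+VEGFC). The angII libraries with marker sums of 7103 and 7999 TPM have the highest Vegfc (31.3 and 47.7 TPM) and Nrp1 (236 and 359 TPM), and their Flt4 (333 and 377 TPM) lies inside the ctrl range.

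Flt4, the receptor of the infused protein, stayed within overlapping ranges in heart LECs. It was at 273, 386, 498 and 558 TPM in ctrl, 333, 377, 432, 439.5 and 625 TPM in angII and 459.8, 494 and 642 TPM in angII+VEGFC libraries. As a log2 value the difference was 0.08 ± 0.22 for angII against ctrl, 0.24 ± 0.27 for angII+VEGFC against angII and 0.32 ± 0.26 for angII+VEGFC against ctrl (limma adjusted p = 0.927, 0.738 and 0.916). The angII against ctrl difference was 0.53 within the first sequencing batch and -0.47 within the second. In diaphragm LECs Flt4 was at 664, 822, 875 and 1091 TPM in ctrl, 610.3, 617, 862, 883 and 953 TPM in angII and 908, 1065 and 1247 TPM in angII+VEGFC libraries. The angII+VEGFC group held the highest library and overlapped both other groups. The log2 difference of angII+VEGFC against angII was 0.39 ± 0.17 with a 95% confidence interval of 0.03 to 0.74 (limma adjusted p = 0.567). Within the batches it was 0.40 (1 angII+VEGFC and 3 angII libraries) and 0.33 (2 of each). That of angII against ctrl was -0.10 and that of angII+VEGFC against ctrl was 0.29.

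Nrp1 in diaphragm LECs was at 6.86, 7.95, 14.2 and 32.0 TPM in ctrl, 13.1, 14.8, 24.7, 34.3 and 41.9 TPM in angII and 5.41, 6.22 and 11.9 TPM in angII+VEGFC libraries. Every angII+VEGFC library lay below every angII library, with within-batch differences of -0.95 and -1.79. Batch 1 held only 1 angII+VEGFC library beside 3 angII libraries, and batch 2 held 2 of each. The log2 difference was -1.08 ± 0.41 for angII+VEGFC against angII (limma adjusted p = 0.567) and 0.78 ± 0.35 for angII against ctrl (adjusted p = 0.318). Without the angII+VEGFC library of mouse 2 the first of these was -0.53. The sum of the 5 blood capillary markers, 1807 to 2344 TPM in ctrl, 1842 to 2429 TPM in angII and 1711 to 2162 TPM in angII+VEGFC, overlapped between the groups but consisted mostly of Gpihbp1. Rgcc was at 18.4 to 94.8 TPM in ctrl, 30.6 to 72.6 TPM in angII and 15.2 to 26.3 TPM in angII+VEGFC, so that, as for Nrp1, the angII+VEGFC libraries lay below the angII libraries. Fabp4 was at 80.8 to 647, 218 to 589.8 and 141 to 249.2 TPM in the same groups, which overlapped, and the part of these single markers was not tested. Detected genes (1 TPM or more) did not overlap in number, at 12924 to 18116 in ctrl, 20062 to 23691 in angII and 14963 to 18373 in angII+VEGFC for the angII group against the others. With this number as a covariate the Nrp1 difference was -1.45 for angII+VEGFC against angII and 1.22 for angII against ctrl, neither past the adjusted test, and that of Flt4 for angII+VEGFC against angII was 0.33. Because the number did not overlap between the groups compared, the covariate largely stands in for the treatment, and these values cannot separate the 2. The median gene differed by 0.28 for angII against ctrl and by -0.21 for angII+VEGFC against angII. Vegfc in diaphragm LECs was at 0.428 to 6.14 TPM in ctrl, 0.615 to 12.8 TPM in angII and 1.10 to 1.55 TPM in angII+VEGFC libraries. Its log2 differences were 0.57, -0.63 and -0.06 for angII against ctrl, angII+VEGFC against angII and angII+VEGFC against ctrl. Those of Vegfd, in the same order, were 0.74, -0.93 and -0.19 in heart LECs and -0.21, 0.31 and 0.10 in diaphragm LECs. The smallest limma adjusted p was 0.673 among the Vegfc and Vegfd values in diaphragm LECs and 0.594 among the Vegfd values in heart LECs. With 1 library left out, the Vegfc difference of angII against ctrl in diaphragm LECs ran from 0.12 to 1.11. That of angII+VEGFC against angII ran from -1.11 to -0.10. The values of 0.12 and -0.10 came without angII mouse 4, whose library had the lowest endothelial marker sum of the diaphragm LECs, 862 TPM. The remaining members ran in heart LECs from -0.14 to 0.38 for angII against ctrl, from -0.60 to -0.02 for angII+VEGFC against angII and from -0.42 to 0.30 for angII+VEGFC against ctrl. The remaining members ran in diaphragm LECs from -0.37 to 0.60 for angII against ctrl, from -0.72 to 0.49 for angII+VEGFC against angII and from -0.30 to 0.29 for angII+VEGFC against ctrl.

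In heart BECs Kdr, Flt1, Flt4 and both neuropilins had higher means in the angII and angII+VEGFC groups than in ctrl, none past the adjusted test. The summed blood capillary markers had medians of 15075, 17081 and 17940 TPM in ctrl, angII and angII+VEGFC. The summed endothelial markers had medians of 2759, 2944 and 2907 TPM, and the part of such transcripts was not tested. Kdr was at 526, 728, 820.2 and 889 TPM in ctrl, 730.0, 892, 1007, 1122 and 1145 TPM in angII and 928, 981 and 991 TPM in angII+VEGFC libraries. The angII+VEGFC libraries lay above every ctrl library. In limma the log2 difference was 0.39 ± 0.14 for angII against ctrl (limma adjusted p = 0.840) and 0.43 ± 0.16 for angII+VEGFC against ctrl (adjusted p = 0.865). Flt4 was at 25.4, 41.5, 47.8 and 49.9 TPM in ctrl, 35.8, 48.3, 61.0, 61.1 and 64.4 TPM in angII and 54.1, 58.2 and 61.1 TPM in angII+VEGFC libraries. The angII+VEGFC and ctrl groups again did not overlap (log2 difference 0.60 ± 0.20, limma adjusted p = 0.857). The ctrl library of mouse 1 was the lowest for both genes. It also had the highest fibroblast marker sum of the heart BEC libraries, 3730.3 TPM, and the lowest endothelial marker sum, 2105 TPM. Without it, the log2 difference of angII+VEGFC against ctrl was 0.32 for Kdr and 0.43 for Flt4. Within batches 1 and 2 it was 0.66 and 0.17 for Kdr and 0.79 and 0.30 for Flt4, where batch 1 held only 1 angII+VEGFC library. Flt1 had differences of 0.37 ± 0.13 for angII and 0.39 ± 0.15 for angII+VEGFC against ctrl (limma adjusted p = 0.814 and 0.865). Without the angII+VEGFC library of mouse 6 the angII+VEGFC against ctrl difference was 0.19 for Flt1, 0.27 for Kdr and 0.38 for Flt4, and without that of mouse 2 it was 0.90 for Flt4. Nrp1 differed by 0.25 ± 0.10 and Nrp2 by 0.36 ± 0.14 for angII against ctrl (limma adjusted p = 0.898 and 0.879), and Nrp2 by 0.22 without ctrl mouse 1. Between angII+VEGFC and angII, the differences of the 10 genes ran from -0.43 to 0.25. For the genes not named singly they ran from -0.58 to 0.35 for angII and from -0.65 to 0.21 for angII+VEGFC against ctrl.

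In cardiomyocyte libraries Vegfd had the largest differences of the family. It was at 1.05, 1.78, 2.06 and 2.96 TPM in ctrl, 1.96, 2.83, 4.75, 5.06 and 5.07 TPM in angII and 3.15, 5.66 and 8.24 TPM in angII+VEGFC libraries. Every angII+VEGFC library lay above every ctrl library, and the angII group overlapped both. The log2 difference was 1.06 ± 0.34 for angII+VEGFC against ctrl (limma adjusted p = 0.183) and 0.78 ± 0.29 for angII against ctrl (adjusted p = 0.383). The call depended on the settings. With the count of detected genes (1 TPM or more) as covariate, Vegfd passed in limma for angII+VEGFC (1.43, adjusted p = 0.0121) and for angII (0.91, adjusted p = 0.0461) against ctrl. In the same fits 769 and 473 of all 15691 genes passed, beside 104 and 14 in the main fit. Vegfd also passed for angII+VEGFC against ctrl (1.40, adjusted p = 0.0210) without the library of mouse 8. That library had 19306 detected genes against 13020 to 15816 in the other cardiomyocyte libraries. With 1 library left out, the count over all genes for angII+VEGFC against ctrl ran from 0 to 852. The summed fibroblast markers Col1a1, Col1a2, Pdgfra, Dcn, Lum and Ogn were at 2176 to 3140.4 TPM in ctrl, 3136 to 4619.7 TPM in angII and 3128 to 4778 TPM in angII+VEGFC libraries. Leukocyte markers summed to 515 to 642 TPM in ctrl, 785 to 1493 TPM in angII and 675 to 1719.6 TPM in angII+VEGFC libraries, so both angiotensin II groups lay above every ctrl library. The part of fibroblast and leukocyte transcripts in the Vegfd values was not tested. The log2 differences of the 9 other genes ran from -0.29 to 0.25 for angII and from -0.60 to 0.31 for angII+VEGFC against ctrl. Between angII+VEGFC and angII, those of all 10 genes, Vegfd included, ran from -0.56 to 0.28 (limma adjusted p = 0.9996).

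**Figure D5:**
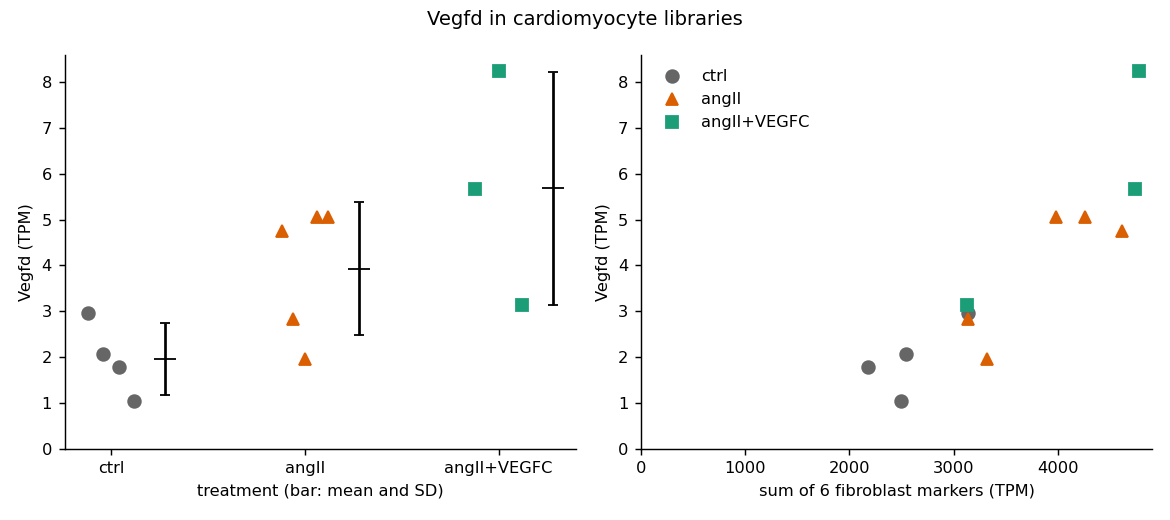
Vegfd in TPM in the 12 cardiomyocyte libraries (4 ctrl, 5 angII and 3 angII+VEGFC), by treatment with the mean and SD on the left and against the sum of 6 fibroblast markers in TPM on the right. The angII+VEGFC libraries lie at 3.15 to 8.24 TPM, above the ctrl libraries at 1.05 to 2.96 TPM.

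Whether an infusion acted differently in the endothelial populations was tested with interaction terms over 28938 genes, of which 0.00691% passed for angII against ctrl in heart minus diaphragm LECs and 0% in each of the other 5 contrasts. No member passed any of these 6 tests in limma, and 0 to 3 of the 10 genes per contrast had an unadjusted p under 0.05, beside 5.04% to 11.8% of all genes. The largest was Vegfc, whose angII against ctrl difference was greater in heart LECs than in heart BECs by 2.37 ± 0.79 on the log2 scale (limma adjusted p = 0.485). In heart BECs Vegfc itself was at 91.5 to 135 TPM in ctrl and 63.2 to 118 TPM in angII libraries. For Nrp1 and Vegfd the same term was 1.27 ± 0.54 and 1.36 ± 0.63 (limma adjusted p = 0.620 and 0.653). For Kdr the angII against ctrl term was 0.53 ± 0.21 for heart minus diaphragm LECs and -0.50 ± 0.21 for diaphragm LECs minus heart BECs (limma adjusted p = 0.422 and 0.382), and the angII+VEGFC against angII term of heart minus diaphragm LECs was -0.53 ± 0.23 (adjusted p = 0.964). For angII+VEGFC against angII, diaphragm LECs minus heart BECs, the term was -1.53 ± 0.59 for Nrp1 and -1.34 ± 0.63 for Flt1 (limma adjusted p = 0.669 and 0.684).

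The other genes of the pathway, 52 in all, were read from a list grouped by role. Between heart LECs and heart BECs, 32 of the 52 passed in limma, beside 24.4% of all genes tested, and the counts by role below stand beside the same share. Of the 32, 9 were higher and 23 lower in heart LECs. The median log2 difference of the 52 was -0.28 beside 0.16 for all genes. Of 10 genes known to be induced by VEGF signalling, 9 passed. Angpt2, a ligand of the Tie2 receptor, was higher in heart LECs (log2 difference 2.55), as were Nfatc1 (1.48), a factor of lymphatic valves, and Rcan1 (1.07), a feedback inhibitor of calcineurin. Apln (-3.38), Esm1 (-3.19) and Dll4 (-1.0), genes of sprouting blood vessels, were lower, as was the homeobox gene Hlx (-2.93). Of 11 partners of the receptors, 8 passed, with Itga9 (2.03), an integrin chain of lymphatic endothelium, higher and the phosphatase Ptprb (-1.91) and the surface protein Clec14a (-2.06) lower in heart LECs. Of 18 genes of signal relay 9 passed, with Src (1.11) higher and the nitric oxide synthase Nos3 (-0.76) among the 8 lower. Of 6 regulators of ligand transcription 4 passed, with the hypoxia factor Epas1 (-1.66) and the oxygen sensor Egln1 (-1.24) lower and Egln3 (1.07) higher. Of 7 genes of VEGF-C and VEGF-D processing 2 passed, Ctsd (0.75) and Pcsk7 (-0.60). Ccbe1 and Adamts3, which together act in the cutting of VEGF-C, had mean levels of 0.877 to 1.75 TPM over the 4 populations.

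Between heart and diaphragm LECs, 10 of the 52 genes passed in limma, 5 in each direction, beside 7.64% of all genes tested. Pcsk5 (2.15), a protease that can cut VEGF-C, Clec14a (1.47), Apln (1.30), Nos3 (0.91) and Epn2 (0.44) were higher in heart LECs. Rcan1 (-1.08), Angpt2 (-0.59), Dll4 (-0.60), Yes1 (-0.52) and Egr1 (-0.36) were lower in heart LECs. Genes that passed numbered 5 of 10 induced genes, 2 of 11 partners, 1 of 7 processing genes, 0 of 6 regulators and 2 of 18 relay genes.

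In the 12 contrasts of treatment, 0 of the 49 to 51 pathway genes tested per population passed in limma, and 0 to 10 had an unadjusted p under 0.05, beside 1.32% to 15.3% of all genes. The count of 10 was that of heart LECs for angII against ctrl, where the share of all genes was 10.9%. The pathway gene with the smallest p in heart LECs was Hlx, with a log2 difference of 2.55 ± 0.48 for angII against ctrl (limma adjusted p = 0.0940). For Ptprb the same difference was 1.03 ± 0.24 (limma adjusted p = 0.168), and for Apln that of angII+VEGFC against angII was -2.96 ± 0.72 (adjusted p = 0.413). These 3 genes were lower in heart LECs than in heart BECs, as given above, and the blood capillary marker sum of heart LECs was also highest in the angII group. The part of capillary transcripts in these values was not tested. In diaphragm LECs the smallest p was that of Esm1, an endothelial proteoglycan, with 1.82 ± 0.56 for angII against ctrl (limma adjusted p = 0.297). In heart BECs it was that of the kinase Akt1, with 0.73 ± 0.20 for angII+VEGFC against ctrl (limma adjusted p = 0.798). In cardiomyocytes it was that of Ppargc1a, a coactivator of mitochondrial genes, with -1.45 ± 0.34 for angII+VEGFC against ctrl (limma adjusted p = 0.0694).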

How the data were processed

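The unit of measurement is the sorted or pelleted cell population of 1 mouse. RNA was amplified with a SMART-Seq ultra low input kit and made into Nextera XT libraries, which do not mark strand. According to the submitters' processing notes and the methods, the authors aligned reads with STAR 2.5.3a to GRCm38, quantified transcripts with Salmon 0.12.0 and deposited a matrix of transcript abundances per gene in TPM. The authors removed samples that stood apart in a principal component analysis from their own tests. TPM keeps no read depth, so the depth behind each value is unknown and no counting interval is given. The study tested counts with another model, which TPM does not allow.

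Groups came from the labels. Differences were tested on log2(TPM + 1) with limma 3.58.1 (R 4.3.3, trend), with Benjamini-Hochberg adjustment over all genes tested and a threshold of 0.05. Within a population, a gene was tested if 3 or more of its libraries reached 1 TPM, and between populations if this held in any population. Age and, for endothelial libraries, sequencing batch were covariates. Populations were compared as the equal-weight mean of the 3 treatments, and fold changes on this scale understate those of low genes. The code was tested on simulated data. The members, gene lists and markers were chosen with earlier results of these data known. Treatment differences are given singly for members with an unadjusted p under 0.05 or groups that do not overlap, and for Vegfc, Vegfd and Flt4 in LECs. Genes like a member are the 3 with the highest Pearson correlation. Python 3.11.15 and matplotlib 3.10.9 drew the figures.

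The same mice gave libraries to several populations, as the labels' animal numbers show. Residuals of libraries from the same mouse had a mean correlation of 0.0360 over 69 pairs, from -0.196 to 0.249. The groups of a treatment contrast hold different mice, so a block was possible only between populations and for the interaction terms. No library pair was identical. Alternatives were another pseudocount, no filter, no covariates, quantile normalization, a residual principal component or the count of detected genes as covariate, fits of 2 groups, ctrl libraries only, the mouse as a block, a sign-flip test over mice, and each library or mouse left out. A blood capillary marker covariate and the removal of 2 libraries were added after seeing the data.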

Additional observations from a re-analysis of the deposited data

Results flagged for a closer look

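Of 80 sets of 4 or 5 libraries of 1 group, 3 had a library whose gap to its nearest neighbour passed Dixon's 95% critical value, and chance alone would give about 4, at 1 in 20. Vegfa in the heart BECs of ctrl mouse 5 was at 55.1 TPM, whereas the other 3 ctrl libraries were at 33.3 to 35.0 TPM. Vegfd in the diaphragm LECs of angII mouse 18 was at 2.07 TPM, with the next library at 0.587 TPM and the lowest listed at 0. Flt1 in the diaphragm LECs of ctrl mouse 9 was at 32.2 TPM, whereas the others were at 3.65 to 7.96 TPM. That library also had a fibroblast marker sum of 940.2 TPM and, at 6797 TPM, the lowest lymphatic marker sum of the 4 ctrl libraries, and their part in the Flt1 value was not tested.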

How the results depend on the processing

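Of 1260 values of single genes between populations under the alternatives, 1201 kept their direction and side of the threshold, as did 144 of 144 interaction values and 605 of 634 treatment values. The treatment and interaction values cover only the results given singly, many of them chosen by a small unadjusted p. None of these was called in the main fit, and a change of size alone was not counted. Between populations 48 lost their call, 5 gained one and 6 changed sign. Of the treatment values 4 gained a call, all for Vegfd in cardiomyocytes, and 25 changed sign. The count of members called in cardiomyocytes moved from 0 to 1 for angII against ctrl with the number of detected genes as covariate, to 1 for angII+VEGFC against ctrl with that covariate or 1 residual principal component, and was 0 to 1 with 1 library left out, where 1 came without mouse 8. In each other treatment and interaction contrast it stayed at 0. Over all genes, the number of detected genes as covariate gave 473 calls for angII and 769 for angII+VEGFC against ctrl in cardiomyocytes. Under a replicate block for the mouse, members called between populations numbered 7, 8, 9, 9, 10 and 9, as without the block, and the block changed no call of a member. In the sign-flip test over mice, Vegfa in heart BECs minus cardiomyocytes had an adjusted p of 0.00266, beside 0.224 in limma. The cause of the sign changes below was not tested.

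With the capillary marker covariate the log2 difference was -0.26 (angII against ctrl) and 0.44 (angII+VEGFC against angII) for Nrp1 and -0.39 for Flt4 (angII+VEGFC against angII) in heart LECs. For Flt4 it was -0.00249 without mice 14 and 15. With the number of detected genes as covariate it was -0.44 for Vegfc in heart LECs and 0.13 in diaphragm LECs (angII+VEGFC against ctrl), and 0.26 (angII against ctrl) and -0.093 (angII+VEGFC against angII) for Vegfd in diaphragm LECs. For angII+VEGFC against ctrl in diaphragm LECs, a pseudocount of 0.1 gave -0.00141 for Vegfd and 0.077 for Vegfc, and quantile normalization gave -0.036 for Vegfd. Quantile normalization gave -0.058 for Vegfd in heart minus diaphragm LECs and -0.034 for Pgf in heart BECs minus cardiomyocytes. In ctrl libraries alone, heart minus diaphragm LECs was -0.058 for Pgf and -0.084 for Vegfd, and heart BECs minus cardiomyocytes was 0.052 for Vegfd.

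With 1 library left out, Flt4 in heart LECs ran from -0.13 to 0.24 (angII against ctrl). For angII+VEGFC against ctrl, Vegfd ran from -0.44 to 0.50 and Vegfc from -0.35 to 1.12 in heart LECs, and from -0.11 to 0.44 and -0.43 to 0.65 in diaphragm LECs. Nrp2 in heart LECs minus heart BECs ran from -0.11 to 0.00029 with 1 mouse left out.

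Counts over all genes moved more. Genes called were 14 for angII and 104 for angII+VEGFC against ctrl in cardiomyocytes, but 0 to 473 and 0 to 852 under the alternatives, 7 for angII against ctrl in heart LECs but 0 to 31, and 0 in diaphragm LECs but 520 with 1 residual principal component. With the block, 7 genes and not 2 passed the angII interaction of heart and diaphragm LECs. Between heart and diaphragm LECs 2239 genes passed, and 638 in ctrl libraries alone.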
